A study of Mus musculus with 21 samples.

Results

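Levels of 8 genes were followed through 21 mouse lung libraries: Nr3c1, the glucocorticoid receptor, 5 genes that this receptor is known to induce (Fkbp5, Zbtb16, Tsc22d3, Sgk1 and Klf9), and the metallothionein genes Mt1 and Mt2. They were taken by symbol from the deposited count table and were chosen by how much their levels differed between libraries of 1 group. They are 8 of 38924 symbols, and all 8 passed the filter on low counts, as did 15770 symbols in all. Those within-group differences are therefore given as a description with no test.

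The mice were A/J females, and their lung RNA was sequenced 22 weeks after treatment in 7 groups of 3 libraries. NNK, a carcinogen of tobacco smoke, was injected once at 100 mg/kg, and bacterial lipopolysaccharide (LPS) was instilled into the nose each week at 5 µg per mouse from 1 week later. The groups were NNK + LPS + Sil + I3C, NNK + LPS + I3C, NNK + LPS + Sil, NNK + LPS, NNK, LPS and Control, where Sil is silibinin and I3C is indole-3-carbinol, each fed at 20 µmol per g of diet. All 5 NNK groups were sampled as tumours dissected from 3 mice per group and pooled, whereas the LPS and Control groups were sampled as normal lung, so the effect of NNK and the change of tissue cannot be told apart. All diet groups carried both NNK and LPS, and no group received a diet agent without them. The labels do not say whether libraries of 1 group came from separate mice or separate pools, so every p-value here refers to the spread between libraries. Replicate numbers give the order of the libraries within a group. In the tumour groups the numbers in the library names rise in the same order but are not all equal to the replicate numbers.

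Glucocorticoids are adrenal steroid hormones that follow a daily rhythm and rise with stress. They enter cells and bind the receptor, which is held ready by heat-shock chaperones. The receptor then moves to the nucleus, binds paired half-sites in DNA and raises or lowers transcription. In lung, the hormone promotes maturation of the alveolar epithelium and restrains inflammation. Metallothioneins are small cysteine-rich proteins that bind zinc and copper. Their genes are switched on by zinc through the factor MTF1, and also by glucocorticoids and by inflammatory cytokines.

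The promoters of Mt1, Mt2 and Sgk1 are shown because they hold the matches to the 2 motifs searched, 1 for each route of induction. Windows of 300 bases, 250 before and 50 after an annotated start, were taken from RefSeq (GRCm38.p6). They numbered 13 for 6 of the 8 genes, as Zbtb16 had no window and Nr3c1 was left out of the search. The glucocorticoid response element was searched as the half-sites GNACA and TGTNC with any 3 bases between them, and the metal response element core as TGCACNC or TGCGCNC, on both strands. Capitals mark the matches, which do not overlap. The windows lie at chr8:94178839-94179138 for Mt1, chr8:94172368-94172667 for Mt2 and chr10:21993640-21993939 for Sgk1, all on the plus strand.
Mt1: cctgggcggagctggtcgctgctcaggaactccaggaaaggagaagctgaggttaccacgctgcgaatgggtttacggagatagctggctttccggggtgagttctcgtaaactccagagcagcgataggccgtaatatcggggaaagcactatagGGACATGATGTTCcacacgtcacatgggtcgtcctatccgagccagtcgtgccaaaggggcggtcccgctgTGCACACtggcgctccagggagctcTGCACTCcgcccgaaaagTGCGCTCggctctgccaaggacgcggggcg
Mt2: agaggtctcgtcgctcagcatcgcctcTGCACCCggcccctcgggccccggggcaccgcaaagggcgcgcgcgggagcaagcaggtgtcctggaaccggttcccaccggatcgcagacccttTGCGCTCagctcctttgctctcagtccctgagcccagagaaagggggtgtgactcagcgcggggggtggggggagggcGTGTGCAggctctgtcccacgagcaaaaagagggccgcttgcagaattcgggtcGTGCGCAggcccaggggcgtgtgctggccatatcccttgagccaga
Sgk1: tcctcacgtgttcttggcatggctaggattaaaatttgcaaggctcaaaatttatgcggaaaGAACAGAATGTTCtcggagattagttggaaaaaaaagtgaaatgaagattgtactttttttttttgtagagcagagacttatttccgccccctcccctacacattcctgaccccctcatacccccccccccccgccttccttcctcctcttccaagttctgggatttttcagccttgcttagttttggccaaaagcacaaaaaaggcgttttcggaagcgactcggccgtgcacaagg

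A glucocorticoid response element was matched in the Mt1 window, with its first base 94 bases before the start, and in the Sgk1 window, 188 bases before the start. It was matched in 156 of 32851 mouse windows (0.475%). The metal response element core was matched 3 times in the Mt1 window and 4 times in the Mt2 window. At least 1 match was held by 25.7% of all windows and at least 4 by 0.517%. Another Sgk1 window, chr10:21994416-21994715, held 1 metal match, and the windows of Fkbp5, Tsc22d3 and Klf9 held neither motif. The matches are letters in a window and were not tested for binding.

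By the GENCODE annotation of GRCm38, Mt2 (chr8:94172664-94173568, plus strand) and Mt1 (chr8:94179082-94180327, plus strand) are neighbours and close paralogs. How the counting treated reads shared by the pair is not given in the sources used here. An exon of Mt2 also overlaps Gm45774 on the opposite strand, and reads of the 2 cannot be told apart without a stated strand setting. Fkbp5 lies at chr17:28399094-28517527 (minus strand) and Zbtb16 at chr9:48654297-48836222 (minus strand). Tsc22d3 lies at chrX:140539528-140600659 (minus strand), Sgk1 at chr10:21882184-21999903 (plus strand) and Klf9 at chr19:23141226-23168134 (plus strand).

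Library totals were 13305504 to 25276293 counts. Levels are CPM, counts scaled to the same total in every library, with library sizes adjusted by the TMM method (trimmed mean of M-values). They carry no gene length, so levels are compared between libraries and not between genes. The number of mt-Atp8 counts per mt-Atp6 count separated the libraries into 3 sets that the labels do not name, called batches here. Batch A (0.0206 to 0.0236) held the Control and NNK libraries with LPS 1 and 2. Batch B (0.0782 to 0.0876) held LPS 3, the NNK + LPS and NNK + LPS + Sil libraries and NNK + LPS + I3C 1. Batch C (0.117 to 0.135) held NNK + LPS + I3C 2 and 3 and the NNK + LPS + Sil + I3C libraries. Lung markers were present throughout: summed CPM of 5 alveolar type 2 markers, with surfactant genes among them, ranged over all libraries from 15739 to 57798. In such bulk samples, fewer cells of a type and less RNA per cell cannot be told apart.

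Nr3c1, which encodes the receptor that the hormone binds, varied least. Replicates 1, 2 and 3, the order used throughout, gave 175, 176 and 206 CPM in NNK + LPS + Sil + I3C tumours, 151, 177 and 161 CPM in NNK + LPS + I3C tumours and 155, 164 and 186 CPM in NNK + LPS + Sil tumours. NNK + LPS tumours gave 175, 182 and 185 CPM and NNK tumours 184, 199 and 194 CPM. LPS lungs gave 169, 153 and 147 CPM and Control lungs 236, 242 and 234 CPM. Control lungs were highest, above every other library, and LPS lungs had the lowest mean. Only Control and NNK, the top 2 groups by mean, did not overlap among neighbours in that order.

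**Figure D1:**
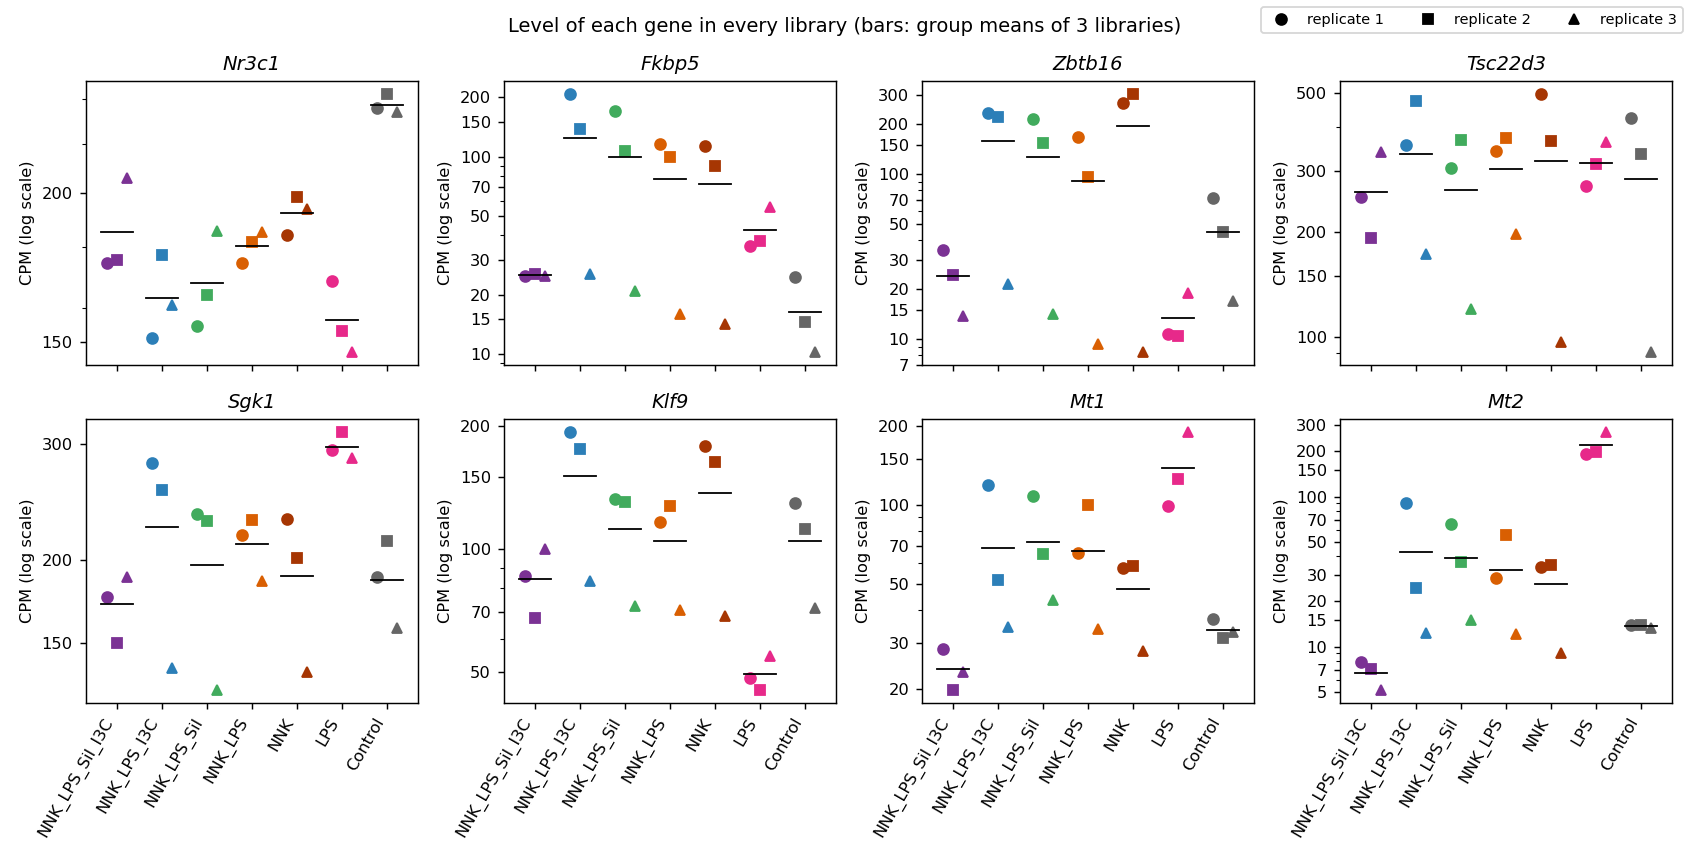
Level of each of the 8 genes in CPM (log axis, 1 panel per gene) in each of 21 libraries, by group; the marker shape gives the replicate number and the bar the group mean (n = 3). In the NNK, NNK + LPS, NNK + LPS + Sil and NNK + LPS + I3C groups the Fkbp5 and Zbtb16 points of replicate 3 lie far below the other 2, at 14.2 to 25.3 CPM for Fkbp5, while the Nr3c1 points of each group lie close together.

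Fkbp5 encodes a co-chaperone that binds the receptor complex and lowers its affinity for hormone, so that its induction forms a feedback loop. Its levels were 25.0, 25.5 and 24.9 CPM in NNK + LPS + Sil + I3C tumours, 208, 139 and 25.3 CPM in NNK + LPS + I3C tumours and 171, 107 and 20.8 CPM in NNK + LPS + Sil tumours. The 3 libraries of the combined diet (Sil + I3C) were nearly equal and close to replicate 3 of the NNK + LPS + I3C group, whereas replicates 1 and 2 of either single diet were several-fold higher. NNK + LPS tumours had 116, 99.8 and 16.0 CPM and NNK tumours 113, 89.8 and 14.2 CPM, again with replicate 3 low. LPS lungs had 35.4, 37.3 and 55.8 CPM and Control lungs 24.6, 14.5 and 10.3 CPM. All LPS libraries were above all Control libraries, and above all libraries of the combined diet; groups with a low replicate 3 overlapped with every neighbour in the order of means.

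Zbtb16 encodes PLZF, a zinc-finger transcription factor strongly induced by glucocorticoids in several tissues. It was at 34.4, 24.3 and 13.7 CPM in NNK + LPS + Sil + I3C tumours, 235, 221 and 21.6 CPM in NNK + LPS + I3C tumours and 214, 153 and 14.1 CPM in NNK + LPS + Sil tumours. It was at 167, 95.9 and 9.39 CPM in NNK + LPS tumours and 269, 305 and 8.34 CPM in NNK tumours. In the 4 tumour groups other than the combined diet, replicates 1 and 2 were 10.2-fold to 36.6-fold above replicate 3. LPS lungs had 10.7, 10.4 and 19.1 CPM, and Control lungs had 71.2, 44.5 and 17.0 CPM. No pair of neighbouring groups was free of overlap. The tumour group means carried wide SDs, such as 194 ± 162 CPM in NNK tumours and 90.7 ± 78.9 CPM in NNK + LPS tumours (SD, n = 3).

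Tsc22d3 encodes GILZ, a leucine-zipper protein that mediates part of the anti-inflammatory action of glucocorticoids. It was at 252, 192 and 339 CPM in NNK + LPS + Sil + I3C tumours, 355, 476 and 173 CPM in NNK + LPS + I3C tumours and 305, 366 and 120.3 CPM in NNK + LPS + Sil tumours. It was at 342, 372 and 197 CPM in NNK + LPS tumours and 497, 365 and 96.8 CPM in NNK tumours. Replicate 3 was lowest in those 4 groups but highest under the combined diet. LPS lungs had 272, 313 and 361 CPM and Control lungs 424, 336 and 90.7 CPM, and Control replicate 3 was the lowest of all 21 libraries. All 7 groups overlapped with their neighbours.

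Sgk1 encodes a serum- and glucocorticoid-regulated kinase that controls sodium transport. It was at 176, 150.1 and 188 CPM in NNK + LPS + Sil + I3C tumours, 281, 256 and 138 CPM in NNK + LPS + I3C tumours and 235, 229 and 127 CPM in NNK + LPS + Sil tumours. It was at 218, 230.3 and 186 CPM in NNK + LPS tumours and 231, 202 and 136 CPM in NNK tumours. Replicate 3 was lowest by a smaller margin here, since replicates 1 and 2 exceeded it by 1.17-fold to 2.04-fold in those 4 groups. LPS lungs had 293, 313 and 285 CPM, and Control lungs had 188, 214 and 158 CPM. Every LPS library was above every other library, which set LPS apart from the next group, NNK + LPS + I3C.

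Klf9 encodes a Krüppel-like transcription factor that is induced by glucocorticoids and by thyroid hormone. It was at 85.7, 67.7 and 100.2 CPM in NNK + LPS + Sil + I3C tumours, 193, 175 and 83.3 CPM in NNK + LPS + I3C tumours and 133, 130.4 and 72.4 CPM in NNK + LPS + Sil tumours. It was at 116, 127 and 70.8 CPM in NNK + LPS tumours and 179, 163 and 68.3 CPM in NNK tumours. Replicate 3 was lowest in each of those 4 groups. LPS lungs had 48.1, 45.1 and 54.7 CPM and Control lungs 129.9, 112 and 71.6 CPM. The 3 LPS libraries were below every other library, which is the reverse of their place for Sgk1.

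Mt1 encodes metallothionein 1, a buffer of zinc and copper. It was at 28.3, 19.8 and 23.3 CPM in NNK + LPS + Sil + I3C tumours, 119, 52.1 and 34.5 CPM in NNK + LPS + I3C tumours and 108, 65.3 and 43.7 CPM in NNK + LPS + Sil tumours. It was at 66.1, 100.1 and 33.9 CPM in NNK + LPS tumours and 57.7, 59.0 and 27.8 CPM in NNK tumours. Replicate 3 was again lowest in each of those 4 groups, and all 3 libraries of the combined diet lay below all Control libraries. LPS lungs had 99.1, 125 and 189.9 CPM, and Control lungs had 36.8, 31.3 and 32.8 CPM. Control lungs were tight for Mt1, with replicate 2 lowest, and LPS lungs had the highest mean.

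Mt2 encodes metallothionein 2, which shares that role. It was at 7.94, 7.07 and 5.15 CPM in NNK + LPS + Sil + I3C tumours, 90.5, 24.5 and 12.3 CPM in NNK + LPS + I3C tumours and 65.4, 36.8 and 15.1 CPM in NNK + LPS + Sil tumours. It was at 28.6, 55.7 and 12.2 CPM in NNK + LPS tumours and 34.1, 35.2 and 9.00 CPM in NNK tumours. Replicate 3 was lowest in each tumour group other than the combined diet. In NNK + LPS + I3C tumours replicate 2 was nearer to replicate 3 than to replicate 1. LPS lungs had 191, 197 and 269.6 CPM and Control lungs 14.0, 14.0 and 13.3 CPM. Every LPS library was above every library of the other 6 groups, and every library of the combined diet was below every other library.

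The same library was thus low for 7 of the 8 genes in 4 tumour groups: replicate 3 was lowest in each of NNK, NNK + LPS, NNK + LPS + Sil and NNK + LPS + I3C for all but Nr3c1. Among all genes tested this held for 1153 of 15770 (7.31%), and the reverse, replicate 3 highest in all 4 groups, held for 769. In those groups replicates 1 and 2 exceeded replicate 3 by 5.15-fold to 8.21-fold for Fkbp5, 1.74-fold to 5.14-fold for Tsc22d3, 1.64-fold to 2.62-fold for Klf9, 1.49-fold to 3.45-fold for Mt1 and 2.00-fold to 7.38-fold for Mt2. The same ratio was 0.833 to 1.10 for Nr3c1. Fkbp5 and Zbtb16 were at least 2-fold lower in replicate 3 than in both others in all 4 groups, as were 10 genes in all (0.0634%). Because the 8 genes were chosen with this spread known, nothing is read from these shares. In Control lungs replicate 3 was also the lowest for every gene but Mt1. The low libraries lay in all 3 batches: NNK 3 in A, NNK + LPS 3 and NNK + LPS + Sil 3 in B, and NNK + LPS + I3C 3 in C.

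**Figure D2:**
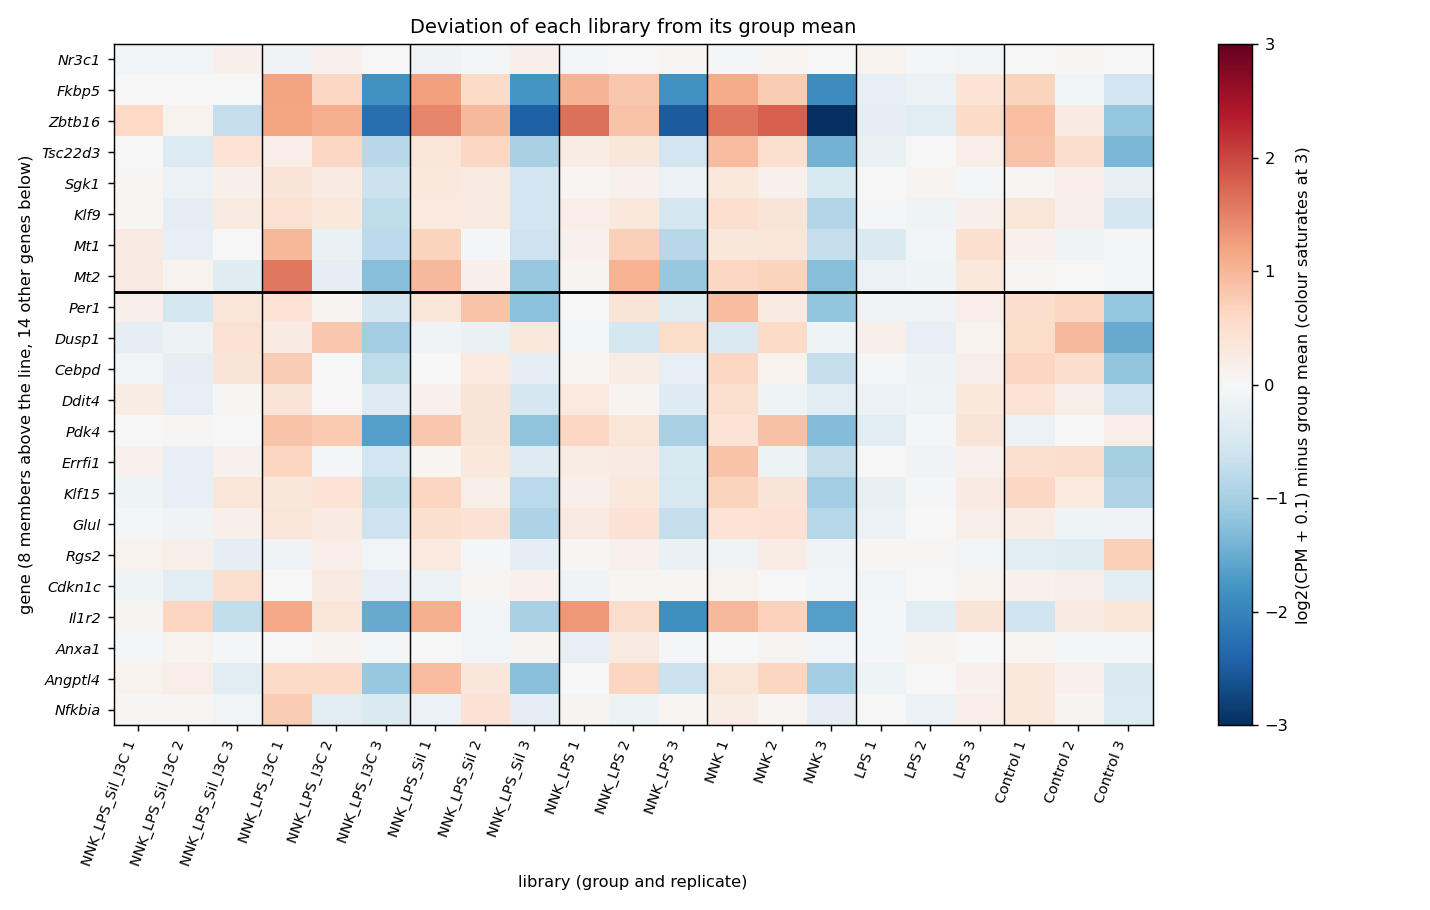
Heat map of log2(CPM + 0.1) minus the group mean, with 1 row for each of the 8 genes and 14 other glucocorticoid-induced genes and 1 column per library; colours saturate at a difference of 3. Replicate 3 of the 4 tumour groups other than the combined diet is coloured low for 7 of the 8 genes, and Nr3c1 stays near its group means.

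Of 14 other glucocorticoid-induced genes, 9 were lowest in replicate 3 of all 4 groups: Per1, Cebpd, Ddit4, Pdk4, Errfi1, Klf15, Glul, Il1r2 and Angptl4. Dusp1, Rgs2, Cdkn1c, Anxa1 and Nfkbia were not, and 7.31% of all genes tested had that order. Pdk4, a kinase that shuts off pyruvate oxidation in fasting, was the 1 gene of this list that was at least 2-fold lower there throughout. Pdk4 had 55.1, 52.0 and 9.62 CPM in NNK + LPS + I3C tumours, 28.4, 21.0 and 6.90 CPM in NNK + LPS + Sil tumours, 24.2, 20.3 and 7.96 CPM in NNK + LPS tumours and 28.7, 39.8 and 8.67 CPM in NNK tumours. Under the combined diet Pdk4 was even, at 12.3, 12.6 and 12.3 CPM. Control lungs had 25.5, 28.2 and 32.7 CPM, with replicate 3 highest. Klf15, a Krüppel-like factor induced by the same receptor, had 92.3, 96.2 and 43.1 CPM in NNK + LPS + I3C tumours, 84.3, 69.3 and 25.6 CPM in NNK tumours and 80.4, 63.4 and 27.7 CPM in Control lungs, with replicate 3 low in each. None of 12 receptor partners and steroid-handling genes, none of 8 zinc and metal-handling genes tested and none of 7 immediate early genes was lowest in replicate 3 of all 4 groups. Replicate 3 was lowest in all 4 groups for 3 of 13 clock genes (Per2, Cry2 and Nr1d2) and 3 of 11 IL-6 and acute-phase genes tested (Il6ra, Stat3 and Socs3). These lists were chosen with earlier results of these data known, so nothing is read from their counts.

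Markers of myeloid cells moved with these libraries. The summed level of 5 neutrophil markers (S100a8, S100a9, Csf3r, Cxcr2 and Retnlg) was 241, 323 and 55.4 CPM in NNK + LPS + I3C tumours, 345, 108 and 94.1 CPM in NNK + LPS + Sil tumours, 207, 108 and 50.3 CPM in NNK + LPS tumours and 443, 541 and 75.8 CPM in NNK tumours. It was lowest in replicate 3 of each group, and 3 of the 5 markers were so in all 4 groups. The sum was 62.9, 81.4 and 61.1 CPM under the combined diet, 860.0, 809.9 and 1031 CPM in LPS lungs and 37.0, 32.2 and 96.1 CPM in Control lungs, where replicate 3 was instead the highest. The summed level of macrophage markers, of which Marco, Siglec5, Mrc1, Cd68 and Fabp4 were measured, was 524, 529 and 386 CPM in NNK + LPS + I3C tumours, 533, 503 and 448 CPM in NNK + LPS + Sil tumours, 534, 656 and 371 CPM in NNK + LPS tumours and 539.6, 525 and 432 CPM in NNK tumours. Of these markers 2 were lowest in replicate 3 of all 4 groups, and no neutrophil or macrophage marker was at 0 in any library. Lists for alveolar type 2, alveolar type 1, club, ciliated, endothelial and fibroblast cells held no gene with that order. Among all genes tested 7.31% had it, and nothing is read from the counts of these lists. The part of myeloid cells in the low libraries was not tested.

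Once group means were removed, 7 of the 8 genes, all but Nr3c1, shared much of their variation. Over 21 libraries, deviations from the group mean of log2 CPM gave a Pearson r of 0.97 for Zbtb16 with Fkbp5, 0.96 for Mt2 with Mt1, 0.94 for Klf9 with Tsc22d3 and 0.93 for Fkbp5 with Klf9. Spearman's rho was 0.93 for Zbtb16 with Fkbp5 and 0.90 for Mt2 with Mt1. The weakest pairs of the 7 were Tsc22d3 with Mt1 (r = 0.60, rho = 0.51) and Tsc22d3 with Mt2 (r = 0.62, rho = 0.48). Nr3c1 had negative r with all others, from -0.53 to -0.11. For Klf9 and Mt2 the deviations gave r = 0.81 but the levels themselves gave -0.11, as LPS lungs were lowest for Klf9 and highest for Mt2. Libraries share depth, scaling and batch, the genes were chosen with this spread known, and no p is given.

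**Figure D3:**
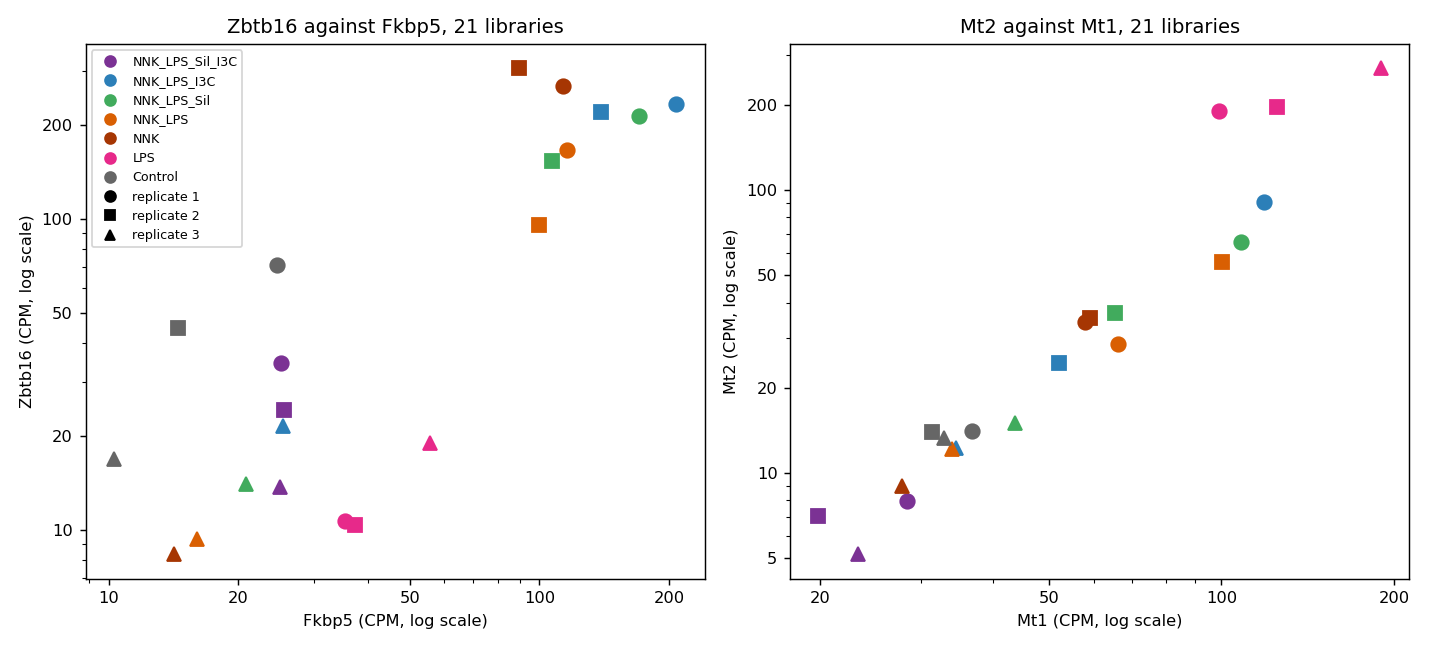
Left, Zbtb16 against Fkbp5; right, Mt2 against Mt1; each point is 1 of 21 libraries in CPM on log axes, coloured by group. LPS libraries lie off the course of the other groups in both panels, with a lower Zbtb16 to Fkbp5 ratio (0.278 to 0.343) and a higher Mt2 to Mt1 ratio (1.42 to 1.93).

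Within a library, the ratio of Mt2 to Mt1 counts set LPS lungs apart. It was 0.221 to 0.356 in NNK + LPS + Sil + I3C tumours, 0.356 to 0.761 in NNK + LPS + I3C tumours, 0.344 to 0.605 in NNK + LPS + Sil tumours, 0.359 to 0.557 in NNK + LPS tumours and 0.324 to 0.597 in NNK tumours. It was 1.42 to 1.93 in LPS lungs and 0.381 to 0.447 in Control lungs, so LPS lungs did not overlap with any group. The ratio of Zbtb16 to Fkbp5 counts was 0.278 to 0.343 in LPS lungs and 1.65 to 3.07 in Control lungs. That ratio spanned 0.549 to 3.40 over all tumour libraries, which did not overlap with LPS lungs.

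By the likeness of deviations among 13472 genes, the 5 most like Fkbp5 were Cecr2 (r = 0.98), Hif3a (0.98), Zbtb16 (0.97), Glul (0.97) and Mbd1 (0.96). The 5 most like Zbtb16 were Fkbp5 (0.97), Rassf2 (0.95), Hif3a (0.94), Fam107a (0.94) and Glul (0.94). Glul, which encodes glutamine synthetase, is on the list of glucocorticoid-induced genes above. Hif3a, a hypoxia-inducible factor subunit, had 21.3, 15.8 and 3.08 CPM in NNK + LPS + I3C tumours and 14.2, 12.3 and 1.38 CPM in NNK tumours. Fam107a had 30.9, 39.5 and 4.75 CPM in NNK + LPS + I3C tumours and 37.4, 39.7 and 3.09 CPM in NNK tumours. Both were several-fold lower in replicate 3 than in replicates 1 and 2. The 5 most like Mt2 were Mt1 (0.96), Cd33 (0.94), Ppp1r21 (0.94), Bach1 (0.92) and Ccr1 (0.91), of which Cd33 and Ccr1 encode surface receptors of myeloid cells. Ppp1r21 ranged from 38.6 to 49.4 CPM over all libraries, so a high r does not mean a large change.

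Group differences were then tested with edgeR's quasi-likelihood test over all 15770 genes and 21 libraries, with Benjamini-Hochberg adjustment and a call at adjusted p under 0.05. NNK and LPS are each compared with the same Control libraries, and each diet with the same NNK + LPS libraries.

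**Figure D4:**
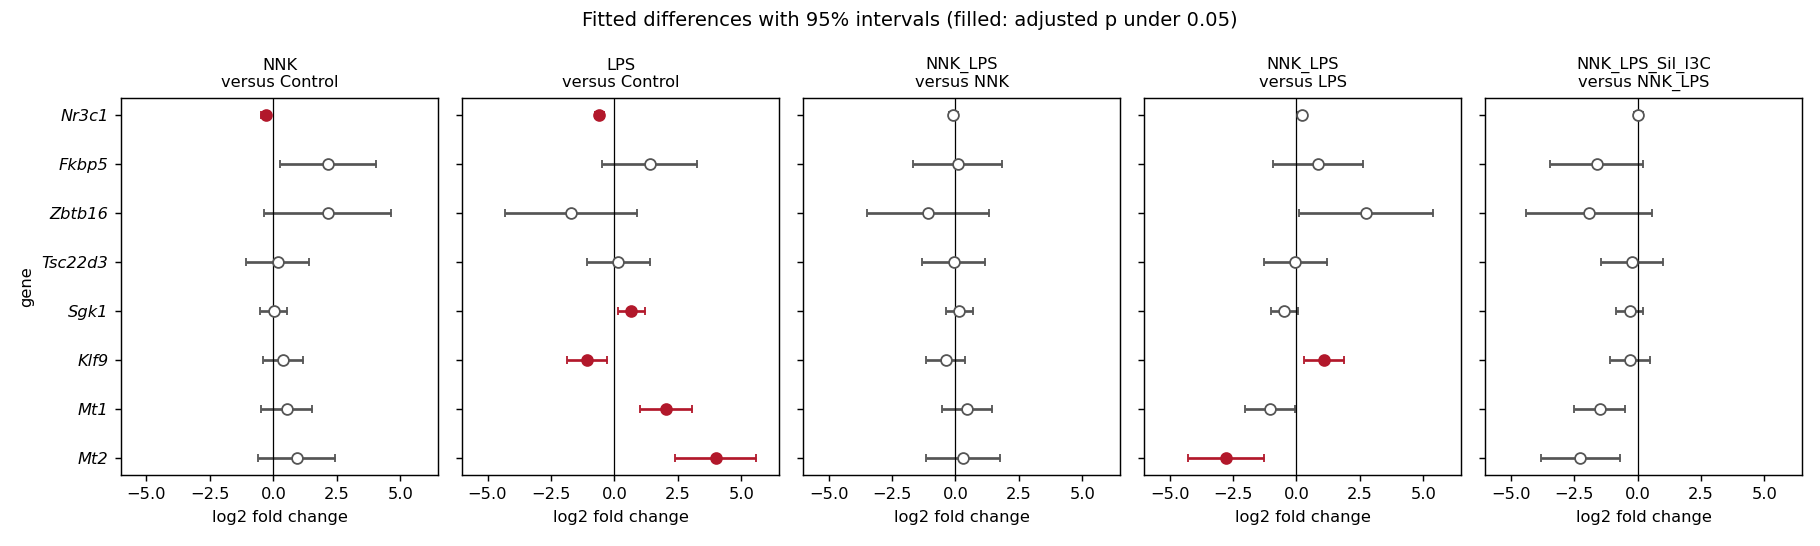
Fitted log2 fold change of each of the 8 genes with its 95% interval in 5 comparisons (first-named group over the second); filled red points have an adjusted p under 0.05. Fkbp5 and Zbtb16 have the widest intervals in every panel and no red point, and Nr3c1 the narrowest; in LPS over Control, 5 genes are red.

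LPS lungs differed from Control lungs in 5 of the 8 genes, in a comparison that called 50% of all genes. Mt1, Mt2 and Sgk1 rose (25.3% of all genes rose), and Nr3c1 and Klf9 fell (24.7% of all genes fell). Mt2 averaged 219 ± 43.9 CPM in LPS lungs and 13.8 ± 0.41 CPM in Control lungs (SD, n = 3 each), a log2 fold change of 3.99 ± 0.75 (SE; edgeR adjusted p = 0.000405). Mt1 averaged 138 ± 46.8 CPM in LPS lungs and 33.6 ± 2.84 CPM in Control lungs, a log2 fold change of 2.04 ± 0.48 (adjusted p = 0.00225). Nr3c1 averaged 156 ± 11.1 CPM in LPS lungs and 237 ± 4.40 CPM in Control lungs, a log2 fold change of -0.60 ± 0.08 (adjusted p = 1.47e-05). The groups did not overlap for these 3, nor for Fkbp5, Sgk1 and Klf9, which makes 6 of 8 against 61.3% of all genes. Within batch A alone, which leaves out LPS 3, these 3 were still called, with log2 fold changes of 3.83 for Mt2, 1.75 for Mt1 and -0.55 for Nr3c1.

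In LPS over Control lungs Sgk1 rose by 0.67 ± 0.25 on the log2 scale (SE, edgeR adjusted p = 0.0362). Klf9 fell there (log2 fold change -1.08 ± 0.38, adjusted p = 0.0255). These 2 calls were each lost on leaving out any 1 of several libraries. Over all such fits the log2 fold changes stayed at 0.56 to 0.78 for Sgk1 and -1.29 to -0.89 for Klf9. The Sgk1 call was lost without Control 1 (adjusted p = 0.0758), Control 3 (0.123), LPS 1 (0.0637), LPS 2 (0.0845) or LPS 3 (0.0614), and with a batch term (0.0568). The Klf9 call was lost without Control 1 (0.0921), Control 2 (0.0606), LPS 1 (0.0612) or LPS 2 (0.0714), and within batch A (0.0958). Fkbp5 had a log2 fold change of 1.39 with a 95% interval of -0.50 to 3.27 (adjusted p = 0.209). It was called when the spread came from LPS and Control libraries alone (1.40, adjusted p = 0.0251), a fit without the widely spread tumour groups. Zbtb16 went the other way, at -1.72 with an interval of -4.32 to 0.89 (adjusted p = 0.262), and Tsc22d3 was at 0.15 (adjusted p = 0.847). The median log2 fold change was 0.41 over the 8 genes and -0.02 over all genes.

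Around these genes, LPS lungs differed from Control lungs in 6 of 14 other glucocorticoid-induced genes, 5 higher and 1 lower. The comparison called 50% of all genes, 25.3% higher and 24.7% lower, and nothing is read from the counts of these lists. Il1r2, a decoy receptor for interleukin-1, had 31.4, 26.0 and 42.5 CPM in LPS lungs and 0.379, 0.766 and 0.839 CPM in Control lungs, a log2 fold change of 5.62 ± 0.94 (edgeR adjusted p = 0.000131). Nfkbia, the inhibitor of NF-kB, rose by 1.51 and Anxa1, an anti-inflammatory annexin, by 0.41, while the cell-cycle inhibitor Cdkn1c fell (-1.49; all log2 fold changes). Of 12 receptor partners and steroid-handling genes 4 rose and 3 fell. The enzyme that regenerates active glucocorticoid, Hsd11b1, fell (log2 fold change -1.50, adjusted p = 0.000168), and the enzyme that inactivates it, Hsd11b2, rose (2.24, adjusted p = 0.000784). Of 8 metal-handling genes tested 4 rose and 2 fell; heme oxygenase Hmox1 rose by 2.09 and the zinc importer Slc39a14 by 2.21, and the zinc exporter Slc30a1 fell (-0.53). Of 11 IL-6 and acute-phase genes 10 rose, and those of smallest adjusted p were Orm2 (8.29), Orm1 (6.64), Lcn2 (5.53) and Socs3 (2.72). Of 7 immediate early genes 5 rose, and of 13 clock genes 1 rose and 6 fell.

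Cell markers moved in the same comparison, which called 50% of all genes, 25.3% higher and 24.7% lower. Of 5 neutrophil markers 4 rose, with sums of 809.9 to 1031 CPM in LPS lungs and 32.2 to 96.1 CPM in Control lungs, and 7 of 9 T and NK lymphocyte markers rose, with sums of 149 to 181 CPM in LPS lungs and 27.9 to 43.4 CPM in Control lungs. All 5 endothelial markers fell, with sums of 1232 to 1410.3 CPM in LPS lungs and 2934 to 3240.5 CPM in Control lungs. All 8 heart muscle markers fell (101 to 146 CPM in LPS lungs, 557 to 584 CPM in Control lungs), as did all 6 adipocyte markers (5.23 to 10.7 CPM in LPS lungs, 68.3 to 73.0 CPM in Control lungs). The adipokine gene Lep was at 0 in LPS 1 and LPS 2, and no other marker of these 5 lists was at 0 in LPS or Control lungs. Without LPS 1, 3 of the 6 adipocyte markers were called, and 7077 of all genes against 7890 in the main fit. The part of these cells in the changes of Nr3c1, Sgk1, Klf9, Mt1 and Mt2 was not tested.

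NNK tumours differed from Control lungs in 1 of the 8 genes, against 13.1% of all genes called and 6.63% called lower. Nr3c1 averaged 192 ± 7.29 CPM in NNK tumours and 237 ± 4.40 CPM in Control lungs, a log2 fold change of -0.30 ± 0.08 (SE; edgeR adjusted p = 0.0248), with no overlap of the groups, as for 37.8% of all genes. Its call was lost without Control 1 (adjusted p = 0.0638), Control 2 (0.0902), NNK 1 (0.130), NNK 2 (0.0564) or NNK 3 (0.0760), with all values still below 0. Fkbp5 had 2.15 ± 0.90 with an interval of 0.25 to 4.05 (adjusted p = 0.12), and Zbtb16 2.14 ± 1.18 with an interval of -0.36 to 4.63 (adjusted p = 0.234). NNK replicate 3 lay among the Control libraries for Fkbp5 and below all of them for Zbtb16. Mt2 was at 0.92 (adjusted p = 0.407), Mt1 at 0.52 (0.486), Klf9 at 0.39 (0.505), Tsc22d3 at 0.17 (0.867) and Sgk1 at 0.02 (0.964). The median was 0.45 over the 8 genes and -0.02 over all genes.

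Of the other 14 glucocorticoid-induced genes, Il1r2 rose in NNK tumours (3.58 ± 0.93, edgeR adjusted p = 0.0219), and Anxa1 (-0.37, adjusted p = 0.0247) and Cdkn1c (-0.62, adjusted p = 0.0312) fell. Of the receptor partners the coactivator Ncoa1 rose (0.34) and the chaperone Hsp90aa1 fell (-0.75). No metal-handling or clock gene was called, 2 of 7 immediate early genes (Egr1 and Fos) rose, and of the IL-6 and acute-phase genes Lcn2 and Stat3 rose and Hp fell. All 5 neutrophil markers rose, with sums of 75.8 to 541 CPM in NNK tumours and 32.2 to 96.1 CPM in Control lungs. All 4 club cell markers fell, with sums of 17322 to 25123 CPM in NNK tumours and 35390.3 to 38627 CPM in Control lungs, and 7 of 8 heart muscle markers fell, with sums of 122 to 267 CPM in NNK tumours and 557 to 584 CPM in Control lungs. Many of these list calls were lost without single libraries, where fewer genes were called in all. All genes called were 2064 (13.1%) in the main fit, 874 without Control 1, 502 without Control 2 and 490 without NNK 1. They were 1509 without NNK 2, 1058 without NNK 3 and 2293 with the 2 groups fitted alone. Without Control 1, Control 2 or NNK 1, 0 of the 14 other glucocorticoid-induced genes and 0 of 5 neutrophil markers were called, and neutrophil markers also gave 0 without NNK 2 and with the 2 groups fitted alone. Without NNK 1, 0 club cell and 0 heart muscle markers were called. Heart muscle markers also gave 0 without Control 2 or NNK 3, and club cell markers 1 (Cbr2) without Control 1 or Control 2. The part of these cells in the Nr3c1 value was not tested.

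Within tumours, LPS left none of the 8 genes called. NNK + LPS over NNK called 0.0951% of all genes by edgeR, and none of the 8 had an unadjusted p under 0.05 or was called by DESeq2. Log2 fold changes were -1.10 for Zbtb16 (95% interval -3.50 to 1.30), 0.09 for Fkbp5 (-1.67 to 1.85), 0.47 for Mt1 (-0.52 to 1.45), 0.30 for Mt2 (-1.15 to 1.75) and -0.09 for Nr3c1 (-0.26 to 0.08). The intervals of Fkbp5, Zbtb16 and Mt2 leave room for more than a 2-fold difference in either direction. Tsc22d3 was at -0.07, Sgk1 at 0.16 and Klf9 at -0.39. No gene of the other glucocorticoid-induced, receptor partner, metal-handling, IL-6 and acute-phase, clock or immediate early lists was called by edgeR, and DESeq2 called 3 clock genes (Arntl, Npas2 and Per3). The 2 groups share no batch, so batch and LPS within tumours cannot be told apart except through a fitted batch term. That term rests on LPS 3, the only LPS library in batch B.

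The effect of LPS in tumours minus its effect in normal lung was tested directly, and 25.1% of all genes were called. Of the 8 genes, the effect on Mt2 was lower in tumours (-3.69 ± 0.99, edgeR adjusted p = 0.0127), as were 14.4% of all genes. The effect on Nr3c1 was higher in tumours (0.51 ± 0.12, adjusted p = 0.00408), as were 10.7% of all genes. For Mt2 the log2 fold change for LPS was 0.30 in tumours and 3.99 in normal lung, and for Nr3c1 it was -0.09 in tumours and -0.60 in normal lung. Both calls held without each of the 12 libraries in turn and with a batch term, at -3.99 for Mt2 (adjusted p = 0.00924) and 0.60 for Nr3c1 (adjusted p = 0.00845). For these groups the batch term rests on LPS 3, the only LPS library in batch B and the highest of them for Mt2. Batch is thus separated from LPS in tumours by that library alone. Mt1 had the same sign as Mt2 (-1.57 ± 0.66, adjusted p = 0.0942) and was called only with a batch term (-2.03, adjusted p = 0.0392). Among the other glucocorticoid-induced genes Il1r2 (-6.95) and Nfkbia (-1.53) were lower in this difference and Cdkn1c (1.01) higher. Of 8 metal-handling genes, 4 were lower, Hmox1 (-1.69), Slc39a14 (-2.37), Slc39a1 (-0.72) and Slc39a8 (-0.76). All 5 neutrophil markers were lower in it too, and their part was not tested.

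NNK + LPS tumours set directly against LPS lungs gave 2 calls among the 8 genes, with 38.2% of all genes called, 17.3% higher and 20.9% lower. Mt2 averaged 32.2 ± 22.0 CPM in NNK + LPS tumours and 219 ± 43.9 CPM in LPS lungs, a log2 fold change of -2.77 ± 0.70 (edgeR adjusted p = 0.00547). The groups did not overlap for Mt2, Klf9, Nr3c1 and Sgk1, 4 of 8 against 50.5% of all genes. Within batch B, which holds only 1 LPS library, Mt2 was at -3.05 (adjusted p = 0.0663). Klf9 averaged 105 ± 29.9 CPM in NNK + LPS tumours and 49.3 ± 4.88 CPM in LPS lungs, a log2 fold change of 1.09 ± 0.38 (adjusted p = 0.0318). The Klf9 call was lost without LPS 1 (adjusted p = 0.0728), LPS 2 (0.0870), LPS 3 (0.0595), NNK_LPS 1 (0.0791) or NNK_LPS 2 (0.109), within batch B (0.209) and with a batch term (0.249). Mt1 was at -1.05 ± 0.46 (adjusted p = 0.0835) and passed without NNK_LPS 2 (-1.47, adjusted p = 0.0426). Zbtb16 was at 2.76 ± 1.25 (adjusted p = 0.0929), Fkbp5 at 0.85 ± 0.84 (0.455) and Nr3c1 at 0.21 ± 0.08 (0.0552). Nr3c1 passed without LPS 1 (adjusted p = 0.0307). Of 14 other glucocorticoid-induced genes 4 fell, Nfkbia (-1.64), Anxa1 (-0.49), Il1r2 (-3.37) and Cebpd (-1.36), and of 5 neutrophil markers 4 fell, with sums of 50.3 to 207 CPM in NNK + LPS tumours and 809.9 to 1031 CPM in LPS lungs. Within batch B, 2 of the 14 genes and 1 of the 5 neutrophil markers were called. The part of neutrophils in these differences was not tested.

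Neither diet agent alone gave a call among the 8 genes. Against NNK + LPS tumours, NNK + LPS + Sil tumours called 0% of all genes by edgeR (578 genes had an unadjusted p under 0.05, none of them among the 8) and NNK + LPS + I3C tumours called 2.02%. DESeq2 called none of the 8 in either. For Sil, Fkbp5 had a log2 fold change of 0.37 (95% interval -1.39 to 2.12) and Zbtb16 0.49 (-1.90 to 2.88). For I3C, Fkbp5 had 0.68 (-1.07 to 2.44) and Zbtb16 0.81 (-1.58 to 3.20). Mt2 had 0.28 (-1.15 to 1.72) for Sil and 0.39 (-1.04 to 1.82) for I3C. Each of these intervals spans more than a 2-fold difference in either direction. Klf9 had 0.10 (-0.69 to 0.88) for Sil and 0.52 (-0.26 to 1.31) for I3C. The interval for Nr3c1 was -0.28 to 0.07 for Sil and -0.32 to 0.03 for I3C.

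The combined diet gave lower metallothionein values that did not pass. NNK + LPS + Sil + I3C over NNK + LPS called 1.36% of all genes and none of the 8. Mt1 averaged 23.8 ± 4.25 CPM in NNK + LPS + Sil + I3C tumours and 66.7 ± 33.1 CPM in NNK + LPS tumours, at -1.48 ± 0.47 (edgeR adjusted p = 0.13). Mt2 averaged 6.72 ± 1.43 CPM in NNK + LPS + Sil + I3C tumours and 32.2 ± 22.0 CPM in NNK + LPS tumours, at -2.25 ± 0.73 (adjusted p = 0.137). Neither gene's groups overlapped, as for 19.3% of all genes, and both had an unadjusted p under 0.05 and were called by DESeq2 (-1.50 and adjusted p = 0.0422 for Mt1, -2.27 and 0.0329 for Mt2). Without NNK_LPS 3, Mt1 passed in edgeR too (-1.80, adjusted p = 0.0451). The 2 groups share no batch. With a batch term, which rests on the NNK + LPS + I3C group spanning batches B and C, the values were -0.023 for Mt1 and 0.051 for Mt2. That group has only replicate 1 in batch B, its highest library for both genes (119 CPM for Mt1 and 90.5 CPM for Mt2). Diet and batch therefore cannot be told apart for these genes.

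Fkbp5 was at -1.62 ± 0.86 (edgeR adjusted p = 0.366) and Zbtb16 at -1.90 ± 1.18 (adjusted p = 0.445) under the combined diet. Nr3c1 was at 0.04, Tsc22d3 at -0.22, Sgk1 at -0.30 and Klf9 at -0.31. The median log2 fold change was -0.90 over the 8 genes and 0.02 over all genes. No gene of the other glucocorticoid-induced, receptor partner, metal-handling, acute-phase or immediate early lists was called. Of 13 clock genes 2 rose, Npas2 (2.91, adjusted p = 0.0085) and Arntl (1.64, 0.0126), and 5 fell, with Per3 (-1.95, 0.0279) and Nr1d2 (-1.69, 0.0307) among them. These calls depended on the fit, as did the number of all genes called, which was 214 in the main fit. With a batch term (2 of all genes called) or without NNK_LPS 2 (32 of all genes called), 0 of the 13 were called. Only Npas2 was called with the 2 groups fitted alone (13 of all genes), or without NNK_LPS 1 (111), NNK_LPS_Sil_I3C 2 (68) or NNK_LPS_Sil_I3C 3 (76). With no filter on low counts (178 of all genes) 2 clock genes rose and 2 fell. The 2 groups share no batch, so batch and diet cannot be told apart. Sums of the 5 neutrophil markers were 61.1 to 81.4 CPM in NNK + LPS + Sil + I3C tumours and 50.3 to 207 CPM in NNK + LPS tumours, with none of the 5 called.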

How the data were processed

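Per the labels' protocols, RNA was extracted with an RNeasy Mini kit and libraries were made with a TruSeq RNA kit (version 2), and per the submitters' processing notes the genome build was mm10, with the aligner, counter and strandedness not given in the sources used here. The authors deposited 1 table of raw counts per gene symbol, with 1 column for each of 21 libraries and no normalization. From these counts, edgeR 4.0.16 (R 4.3.3; filterByExpr with a minimum count of 10, TMM, 7 group means, robust quasi-likelihood F test, 14 residual degrees of freedom, common biological coefficient of variation 0.168) gave log2 fold changes with their SEs, and p-values were adjusted over all 15770 genes by Benjamini-Hochberg. The script was tested on simulated data. Named are all 8 genes, at most 4 genes of smallest adjusted p per fixed list and comparison, and the 5 genes whose deviations from group means (log2 CPM, prior count 2, mean CPM of at least 1) correlate most with Fkbp5, Zbtb16 and Mt2. Genes named for the order of their replicates were named after their values were seen. The genes and lists were chosen with earlier results of these data known.

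Alternatives were relative log expression size factors, no filter, DESeq2 1.42.0, the compared groups alone, a replicate block, a batch term, 1 batch alone and leaving out each library. Reading the counts of the other lists under these alternatives was chosen after seeing the data. Batches were read from the mt-Atp8 to mt-Atp6 count ratio with cuts at 0.05 and 0.1. Replicate numbers are the order of a group's columns. In the tumour groups the numbers in the library names rise in that order but are not all equal to the replicate numbers. The labels do not say that a place in the order marks shared mice or days. Deviations were compared between libraries with the same place in that order. All 3 pairs had r above 0.1 (r = 0.158, 0.276 and 0.262) only for NNK + LPS + I3C and NNK + LPS. There the block changed no call. Markers Adgre1, Hbb-b1 and Hbb-b2 had no matching symbol, and Mt3, Mt4, Saa2, Myh1, Myh4 and Fcer1a failed the filter.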

Additional observations from a re-analysis of the deposited data

Results flagged for a closer look

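The effect of LPS differed between tumours (NNK + LPS over NNK) and normal lung (LPS over Control) for 2 of the 8 genes, by the test of the difference itself in edgeR's quasi-likelihood fit. For Mt2 the difference of the log2 fold changes was -3.69 ± 0.99 (SE; adjusted p = 0.0127), with 0.30 in tumours and 3.99 in normal lung. All 3 LPS lungs lay above all 3 Control lungs for Mt2, whereas NNK + LPS and NNK tumours overlapped. For Nr3c1 the difference was 0.51 ± 0.12 (SE; adjusted p = 0.00408), with -0.09 in tumours and -0.60 in normal lung. Nr3c1 was lower in all 3 LPS lungs than in all 3 Control lungs. The tumour groups compared share no batch. With a batch term both genes were still called by edgeR, at -3.99 for Mt2 (adjusted p = 0.00924) and 0.60 for Nr3c1 (adjusted p = 0.00845). That term rests on LPS 3, the only LPS library in batch B. Batch is thus separated from LPS in tumours by that library alone. All 5 neutrophil markers were lower in the same difference, and their part was not tested.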

How the results depend on the processing

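The number of the 8 genes called stayed within 1.5 times its value in 91 alternatives and moved further in 16. NNK over Control called 0 to 1 when single libraries were left out and LPS over Control 3 to 4. NNK + LPS over LPS called 1 with no filter, 4 with DESeq2 (Klf9, Mt2, Nr3c1 and Zbtb16), 0 within batch B and 1 to 2 with single libraries left out. The combined diet over NNK + LPS called 2 with DESeq2 and 0 to 1 with single libraries left out. In the fit with a replicate block the count changed only for NNK + LPS over LPS, to 3 against 2. Mt1 was added there (-1.19, edgeR adjusted p = 0.0411). The block pairs libraries by their place in the column order, and the labels give no pairing.

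Among single values, 763 kept their direction and their side of the threshold, 26 lost a call, 13 gained one and 54 turned sign. Signs turned only for values that were not called. With a batch term, NNK + LPS over NNK gave 0.040 for Nr3c1, -0.53 for Fkbp5, -0.29 for Mt1 and -0.18 for Mt2, and the combined diet gave -0.12 for Nr3c1, 0.21 for Sgk1, 0.27 for Klf9 and 0.051 for Mt2. With the replicate block, Tsc22d3 was 0.050 in NNK + LPS over NNK, Zbtb16 -0.030 in the difference of LPS effects, and Mt1 -0.026 in NNK + LPS + I3C over NNK + LPS.

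Leaving out single libraries, log2 fold changes ranged for NNK over Control from -0.29 to 0.62 (Tsc22d3) and -0.13 to 0.23 (Sgk1). For LPS over Control, Tsc22d3 ranged from -0.27 to 0.57. For NNK + LPS over NNK they ranged from -0.40 to 0.57 (Fkbp5), -0.51 to 0.39 (Tsc22d3), -0.036 to 0.32 (Sgk1) and -0.36 to 0.69 (Mt2). For NNK + LPS over LPS, Tsc22d3 ranged from -0.23 to 0.18. For the difference of LPS effects, Zbtb16 ranged from -0.17 to 1.15 and Tsc22d3 from -0.66 to 0.24. For Sil they ranged from -0.27 to 0.85 (Fkbp5), -0.11 to 1.28 (Zbtb16), -0.52 to 0.15 (Tsc22d3), -0.25 to 0.13 (Sgk1), -0.12 to 0.33 (Klf9), -0.29 to 0.54 (Mt1) and -0.31 to 0.94 (Mt2). For I3C they ranged from -0.22 to 0.44 (Tsc22d3), -0.12 to 0.32 (Sgk1), -0.64 to 0.45 (Mt1) and -0.82 to 1.05 (Mt2). For the combined diet, Nr3c1 ranged from -0.053 to 0.076.

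The cause of these shifts was not tested. With 3 libraries a group and 1 low library in 4 tumour groups, the SEs of Fkbp5 and Zbtb16 were wide. Within-batch fits could not be made for NNK + LPS over NNK, the combined diet or the difference of LPS effects.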
